A study of Mus musculus with 35 samples.

Results

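The data described here are the 9 arrays of 35 that set primary inguinal adipocytes of C57BL/6J mice grown for 7 days with norepinephrine (NE, 5 cultures) against untreated cultures of the same strain and age (4 cultures). Members were taken by their labels for strain, days of culture and treatment, and by no measured value. Precursor cells from inguinal subcutaneous fat were plated and left to differentiate in medium with newborn calf serum, insulin and ascorbate, which NE and control cultures shared. NE was given at 1 uM from the first day of culture. The treatment note names 1 uM rosiglitazone (ROSI) beside NE for every culture of the series, controls included, and cultures were grouped here by the treatment label each one carries. RNA was read on Mouse Exon 1.0 ST arrays, on which a transcript cluster is the set of probes that together measure a gene, and values are on the log2 scale. For comparison, 4 ROSI cultures of C57BL/6J cells at day 7, and 5 NE and 4 control cultures of SV129 cells at day 7, were used.

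NE is the transmitter of the sympathetic nerves of fat. It binds beta-adrenergic receptors, which raise cyclic AMP through the G protein Gs and adenylyl cyclase. Cyclic AMP activates protein kinase A, which switches on lipolysis and phosphorylates the transcription factor CREB. In adipocytes this pathway is known for early transcription of the Nr4a nuclear receptors and Ppargc1a and, in brown and beige cells, for Ucp1, the mitochondrial protein that releases respiration as heat. Inguinal fat of mice is a depot where such beige cells can form.

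The cultures carried adipocyte transcripts in both groups. Adipoq, which encodes the hormone adiponectin, measured 12.54, 12.74, 12.52, 12.73 and 12.66 in NE cultures 1, 3, 4, 5 and 6, against 12.33, 12.77, 12.62 and 12.31 in control cultures 2, 3, 4 and 6. Fabp4, the fatty acid carrier of adipocytes, lay between 11.87 and 12.15 in NE cultures and between 11.64 and 12.05 in control cultures. Lep, which encodes leptin, was dim in both, at 5.05 to 5.41 in NE cultures and 4.95 to 5.44 in control cultures, among the dimmest clusters, here those with a mean level under 6.45. Lymphocyte markers were dim, with a mean level per array of 5.94 to 6.03 in NE cultures and 6.02 to 6.04 in control cultures, and endothelial markers averaged 7.78 to 7.90 and 7.77 to 7.98. Macrophage markers were present, with Cd68, a lysosomal protein of macrophages, at 10.76 ± 0.12 in NE cultures and 10.91 ± 0.10 in control cultures (SD, n = 5 and 4). In cultures read as a whole, fewer cells of a type and less RNA per cell cannot be told apart.

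NE and control cultures were close across the whole transcriptome. Pearson correlations between the 9 arrays, across clusters, were 0.9947 to 0.9982, and no pair was identical. On the first principal component of the 17 C57BL/6J arrays, which held 64.4% of their variance, NE cultures lay at -10.12 to -4.92, ROSI cultures at 40.42 to 43.86, control cultures of day 7 at -13.25 to -9.5 and control cultures of day 3 at -21.73 to -20.31. NE cultures sat beside controls of the same age, and NE cultures 3, 5 and 6 lay further towards ROSI than any control.

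**Figure D1:**
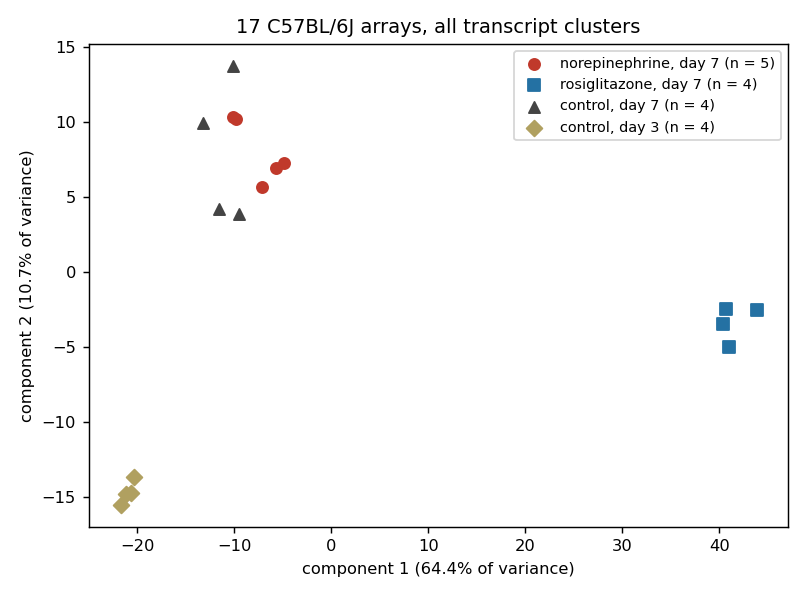
Principal components of the 17 C57BL/6J arrays over 17958 transcript clusters, 1 point per array, with the share of variance on each axis. NE cultures lie at -10.12 to -4.92 on component 1, next to day 7 controls and far from ROSI cultures, which start at 40.42.

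In the limma test, 0 of 17958 clusters (0%) differed between NE and control cultures at an adjusted p under 0.01, the p-values being adjusted by Benjamini and Hochberg's method across the whole table. The smallest adjusted p was 0.42 (limma), for 9430097D07Rik, a locus with no role described here. At an unadjusted p under 0.05 there were 1228 clusters (6.84%), with 829 higher (4.62%) and 399 lower (2.22%) in NE cultures. The split depended on scaling: it was 600 higher and 512 lower after quantile normalization, and 439 higher and 850 lower after centring each array on its median. The median of all clusters was 0.0108 higher in NE cultures as deposited, and no scaling moved it by 0.1.

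The median standard error of a difference was 0.0559 on the log2 scale, and for 17641 clusters (98.2%) the 95% interval of the NE to control ratio lay within 1.5-fold in either direction. For 17923 clusters (99.8%) it lay within 2-fold. Differences ran between -0.82 and 1.12, and 26 clusters exceeded 0.5 in size. In 356 clusters (1.98%) the NE and control arrays did not overlap, with NE above in 229 (1.28%) and below in 127 (0.707%).

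**Figure D2:**
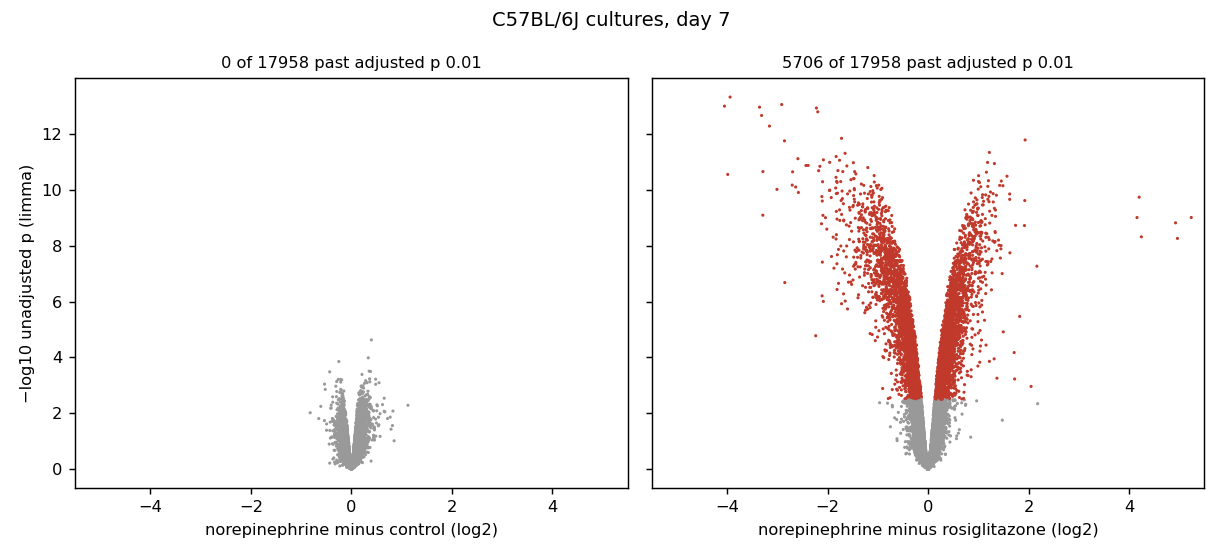
Each point is 1 transcript cluster, by its log2 difference and the −log10 of its unadjusted limma p, with red for adjusted p under 0.01. NE against control has 0 red points and spans -0.82 to 1.12, while NE against ROSI has 5706.

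Genes of the pathway between receptor and kinase had close means in NE and control cultures. Of 30 listed genes, 22 had a cluster with a single symbol. The other 8 were not analysed here. None of the 22 passed the test, 12 had a higher mean in NE cultures, and their median difference was 0.00507, beside 0.0108 over all clusters. Those with an unadjusted p under 0.05 numbered 3 (13.6%), all higher, beside 6.84% of all clusters (4.62% higher). All 22 had intervals within 1.5-fold. Gnas, the Gs alpha subunit, measured 9.66 ± 0.03 in NE cultures (SD, n = 5) and 9.66 ± 0.04 in control cultures (SD, n = 4). Prkacb, a catalytic subunit of protein kinase A, measured 10.59 ± 0.05 in NE cultures and 10.60 ± 0.03 in control cultures, and Prkar1a, a regulatory subunit, 11.54 ± 0.07 and 11.57 ± 0.06.

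The furthest apart of this pathway was Adcy5, an adenylyl cyclase. It read 8.47, 8.69, 8.48, 8.67 and 8.71 in NE cultures 1, 3, 4, 5 and 6, against 8.27, 8.51, 8.49 and 8.31 in control cultures 2, 3, 4 and 6. The groups overlapped, and the difference of 0.21 (SE 0.07, adjusted p = 0.69, limma) did not pass. Adra1b, an alpha-1 receptor that signals through calcium, was 8.68 ± 0.06 in NE cultures and 8.74 ± 0.14 in control cultures. Rgs2 and Arrb2, which damp receptor signalling, differed by -0.05 (SE 0.11) and -0.02 (SE 0.05).

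Enzymes and carriers that clear NE gave similar values. Of 12 listed genes 8 were measured, 0 passed, and the median difference was 0.0446. Maoa, the monoamine oxidase that degrades NE, was 11.26 ± 0.15 in NE cultures and 11.18 ± 0.24 in control cultures, and Slc6a2, the NE transporter, was 6.46 ± 0.08 and 6.48 ± 0.02.

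Many genes known to be transcribed in response to cyclic AMP carry a site for CREB, the cyclic AMP response element. Its full form is TGACGTCA and its core is TGACG. Both were searched on both strands of the RefSeq promoters (GRCm38.p6, 250 bases before to 50 after the start); the full form contains the core. The core was in 12 of the 16 listed cAMP-induced genes that had a promoter in the table, and in 29.4% of the 12203 measured genes with one. The full form was in 1 of the 16 and in 2.7% of measured genes. Over single promoters, 20.8% of 32851 held the core and 1.79% the full form. These windows are shown because their genes are the classical readouts of the pathway in adipocytes; capitals mark the match, and CGTCA is the core read on the other strand.
Nr4a1: ccgggccgtgtgCGTCAgtggcgcccccgc
Nr4a3: ggaggaggagggTGACGtagcgtcccatgt
Fos: agttccgcccagTGACGtaggaagtccatc
Ppargc1a: ggtgccctcccaCGTCActgagctccagtg
Dusp1: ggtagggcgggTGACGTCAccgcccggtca
Dio2: ctctttctcaaTGACGTCAagatctttagc

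They are at chr15:101266765-101266794 (Nr4a1, plus strand), chr4:48045062-48045091 (Nr4a3, plus strand), chr12:85473812-85473841 (Fos, plus strand), chr5:51567757-51567786 (Ppargc1a, minus strand), chr17:26508597-26508626 (Dusp1, minus strand) and chr12:90739115-90739144 (Dio2, minus strand), all in promoters. Relative to the annotated start of transcription, their matches begin at positions -69, -231, -66, -49, -143 and -95. A match is a run of letters and not a measured binding site.

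None of the genes behind these windows passed the test between NE and control cultures. Nr4a1, an orphan nuclear receptor that NE induces within hours in fat, read 8.96, 8.70, 8.91, 9.06 and 8.76 in NE cultures 1, 3, 4, 5 and 6, against 8.99, 8.94, 9.09 and 9.05 in control cultures 2, 3, 4 and 6. The groups overlapped, with the lowest values in NE cultures 3 and 6, and the difference was -0.14 (SE 0.07, adjusted p = 0.77, limma). Nr4a3, of the same receptor family, was 7.19, 7.01, 7.21, 6.98 and 7.02 in NE cultures and 7.06, 7.03, 7.06 and 7.32 in control cultures, a difference of -0.04 (SE 0.07). Nr4a2 differed by -0.09 (SE 0.14).

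Among the 23 measured genes of this list 0 passed, 17 had a higher mean in NE cultures (13 after quantile normalization), and the median difference was 0.0399. This median was 0.00514 after quantile normalization, 0.0134 after median centring and 0.0189 without control culture 3. Fos, a subunit of the AP-1 transcription factor, had the widest difference, 0.34 (SE 0.17, adjusted p = 0.77, limma). It was 8.41, 9.0, 8.62, 8.99 and 9.01 in NE cultures and 8.44, 8.63, 8.80 and 8.0 in control cultures, so the spread within each group was as wide as the difference. Dusp1, a phosphatase of MAP kinases whose promoter holds the full element, was 11.72 ± 0.06 in NE cultures and 11.70 ± 0.11 in control cultures. Pde4d and Pde3b, phosphodiesterases that break down cyclic AMP, differed by 0.04 (SE 0.04) and 0.15 (SE 0.08). Over the 337 clusters of all measured genes with the full element in a promoter, 0 passed, 63.5% had a higher mean in NE cultures and the median difference was 0.0222, beside 57.7% and 0.0124 over all clusters with a promoter.

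Ucp1 was at the level of control cultures. It read 6.10, 6.02, 6.08, 6.19 and 5.97 in NE cultures 1, 3, 4, 5 and 6, against 6.21, 6.08, 6.16 and 6.13 in control cultures 2, 3, 4 and 6, among the dimmest clusters. The difference of -0.07 had a 95% interval of -0.18 to 0.04 (adjusted p = 0.83, limma). Cidea, which coats lipid droplets in brown adipocytes, was dim too, at 4.90 ± 0.13 in NE cultures and 4.86 ± 0.07 in control cultures. Elovl3, a fatty acid elongase of cold-exposed brown fat, was 5.99 ± 0.28 and 6.15 ± 0.08, and Dio2, the deiodinase that activates thyroid hormone, 7.26 ± 0.18 and 7.42 ± 0.36.

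Ppargc1a, the coactivator that drives mitochondrial biogenesis, read 9.73, 9.96, 9.59, 9.78 and 9.90 in NE cultures and 9.51, 9.85, 9.69 and 9.61 in control cultures. The groups overlapped in part, and the difference was 0.13 (SE 0.09, 95% interval -0.06 to 0.32, adjusted p = 0.83, limma). Of the 29 measured thermogenic and beige genes 0 passed and 18 had a higher mean in NE cultures. Their median difference was 0.0236 as deposited and -0.00291 after median centring. Prdm16, which specifies brown fat, was 7.41 ± 0.04 in NE cultures and 7.36 ± 0.05 in control cultures, and Tmem26 and Tnfrsf9, surface markers of beige cells, differed by 0.04 (SE 0.07) and 0.00 (SE 0.05).

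A few members of this list stood further out without passing. Cox8b, the brown fat and muscle isoform of a cytochrome oxidase subunit, was 9.93, 11.01, 10.08, 10.86 and 10.79 in NE cultures and 9.41, 10.09, 10.16 and 9.62 in control cultures. NE cultures 3, 5 and 6 were above every control while 1 and 4 lay among them, and the difference was 0.72 (SE 0.25, adjusted p = 0.69, limma). Ppara, a nuclear receptor that turns on fatty acid oxidation, was 8.49, 8.93, 8.54, 8.79 and 9.02 in NE cultures and 8.27, 8.51, 8.40 and 8.35 in control cultures, with an overlap at the low end and a difference of 0.37 (SE 0.11, adjusted p = 0.68, limma). Letmd1, a mitochondrial inner membrane protein, differed by 0.29 (SE 0.09) and Ppargc1b, the sister coactivator of Ppargc1a, by 0.19 (SE 0.06). These 4 and Esrra (0.10, SE 0.04), an orphan receptor that works with Ppargc1a, were the members with an unadjusted p under 0.05, so 5 of 29 (17.2%) beside 6.84% of all clusters.

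Genes of fatty acid oxidation had slightly higher means in NE cultures, though none passed the test. All 17 measured members had a higher mean (16 after quantile normalization and 15 after median centring), beside 56.6% of all clusters. Their median difference was 0.233, beside 0.0108 over all clusters. An unadjusted p under 0.05 was reached by 9 (52.9%), beside 6.84% of all clusters, and 0 passed the adjusted threshold. The median stayed between 0.184 and 0.285 when any 1 array was left out. The members share cells and arrays, so their number is not a number of independent observations.

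Acadm, the medium-chain acyl-CoA dehydrogenase, read 10.99, 11.56, 11.06, 11.34 and 11.44 in NE cultures 1, 3, 4, 5 and 6, against 10.82, 11.05, 10.96 and 10.90 in control cultures 2, 3, 4 and 6. NE culture 1 lay below control culture 3, so the groups overlapped, and the difference was 0.34 (SE 0.11, adjusted p = 0.69, limma). Eci1, which isomerises unsaturated intermediates, differed by 0.37 (SE 0.13), Acaa2, the thiolase of the last step, by 0.35 (SE 0.14) and Acadvl, which handles very long chains, by 0.34 (SE 0.11). Slc25a20, the carnitine carrier of the inner mitochondrial membrane, was the member whose groups did not overlap, at 9.25, 9.57, 9.31, 9.35 and 9.57 in NE cultures and 9.14, 9.23, 9.07 and 9.21 in control cultures (difference 0.25, SE 0.07, adjusted p = 0.68, limma). Cpt1a, the liver-type gatekeeper of mitochondrial entry, had close means, at 10.85 ± 0.02 in NE cultures and 10.83 ± 0.05 in control cultures.

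The respiratory chain and tricarboxylic acid cycle showed the same pattern at a smaller size. All 21 measured members had a higher mean in NE cultures (20 after either scaling), and the median difference was 0.123. An unadjusted p under 0.05 was reached by 6 (28.6%), beside 6.84% of all clusters, and 0 passed. Ogdh, a subunit of the oxoglutarate dehydrogenase, was 11.26, 11.43, 11.24, 11.40 and 11.48 in NE cultures and 11.13, 11.16, 11.10 and 11.23 in control cultures, so that the groups just failed to overlap (0.20, SE 0.06, adjusted p = 0.68, limma). Sdhb, the iron-sulphur subunit of complex II, had the largest difference of the list, 0.25 (SE 0.14). The median of this list was 0.0761 without control culture 2.

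Synthesis and storage genes had mostly higher means as well. Of 22 measured genes of fatty acid and triglyceride synthesis, 19 had a higher mean in NE cultures, and the median difference was 0.161. An unadjusted p under 0.05 was reached by 10 (45.5%), beside 6.84% of all clusters, and 0 passed. Gpd1, which makes glycerol phosphate for triglyceride, was 11.12, 11.67, 11.22, 11.57 and 11.67 in NE cultures and 10.73, 11.43, 11.05 and 10.94 in control cultures, overlapping at NE cultures 1 and 4 (0.41, SE 0.16, adjusted p = 0.69, limma). Dgat2, which adds the last acyl chain, was 11.06, 11.31, 11.02, 11.26 and 11.28 in NE cultures and 10.72, 11.05, 10.82 and 10.97 in control cultures (0.30, SE 0.08, adjusted p = 0.68, limma). Scd1 and Scd2, the abundant desaturases, differed by 0.04 (SE 0.04) and 0.03 (SE 0.03), and Elovl6, an elongase, by -0.04 (SE 0.05).

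Among 15 measured lipolysis genes 12 had a higher mean in NE cultures, with a median difference of 0.117. An unadjusted p under 0.05 was reached by 5 (33.3%), beside 6.84% of all clusters, and 0 passed. The median was 0.0793 without control culture 2 and 0.199 without control culture 3. Pnpla2, the adipose triglyceride lipase, read 12.21, 12.59, 12.26, 12.54 and 12.57 in NE cultures and 11.97, 12.39, 12.18 and 12.09 in control cultures (0.28, SE 0.10, adjusted p = 0.69, limma). Mgll, the monoglyceride lipase of the final step, was 10.29, 10.64, 10.27, 10.61 and 10.60 in NE cultures and 10.00, 10.23, 10.19 and 10.09 in control cultures. Its groups did not overlap and the difference was 0.35 (SE 0.09, adjusted p = 0.68, limma). Plin1, which coats the droplet and gates the lipases, differed by 0.14 (SE 0.08), and G0s2, an inhibitor of Pnpla2, by 0.09 (SE 0.11).

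Adipocyte identity genes had a median difference of 0.136, with 15 of 18 higher. An unadjusted p under 0.05 was reached by 5 (27.8%), beside 6.84% of all clusters, and 0 passed. Without control culture 2 the median was 0.0873. Pparg, the master regulator of adipocyte differentiation, was 11.92 ± 0.06 in NE cultures and 11.81 ± 0.06 in control cultures (0.11, SE 0.04, adjusted p = 0.70, limma). Cebpa, its partner, was 10.33, 10.53, 10.25, 10.42 and 10.41 in NE cultures and 9.97, 10.36, 10.12 and 10.04 in control cultures (0.27, SE 0.08, adjusted p = 0.68, limma). Lpl, the lipoprotein lipase, was 13.61 ± 0.03 and 13.61 ± 0.02. Preadipocyte markers had a median difference of -0.00774 over 16 genes, and extracellular matrix genes -0.0015 over 28.

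Macrophage markers ran the other way. Of 12 measured, 10 had a lower mean in NE cultures, and the median difference was -0.14. An unadjusted p under 0.05 was reached by 4 (33.3%), all lower, beside 6.84% of all clusters (2.22% lower), and 0 passed. The median was -0.0907 without control culture 4. Itgam, an integrin of myeloid cells, was 8.54, 8.28, 8.49, 8.46 and 8.37 in NE cultures and 8.63, 8.73, 8.82 and 8.49 in control cultures (-0.24, SE 0.07, adjusted p = 0.68, limma). Ptprc, the CD45 antigen of blood cells, was 6.71 ± 0.09 and 6.94 ± 0.20, and Csf1r, the macrophage growth factor receptor, 8.38 ± 0.03 and 8.44 ± 0.11. The mean level of the list per array was 8.589 to 8.77 in NE cultures and 8.616 to 8.915 in control cultures. Its part in the differences of the lipid gene lists was not tested.

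**Figure D3:**
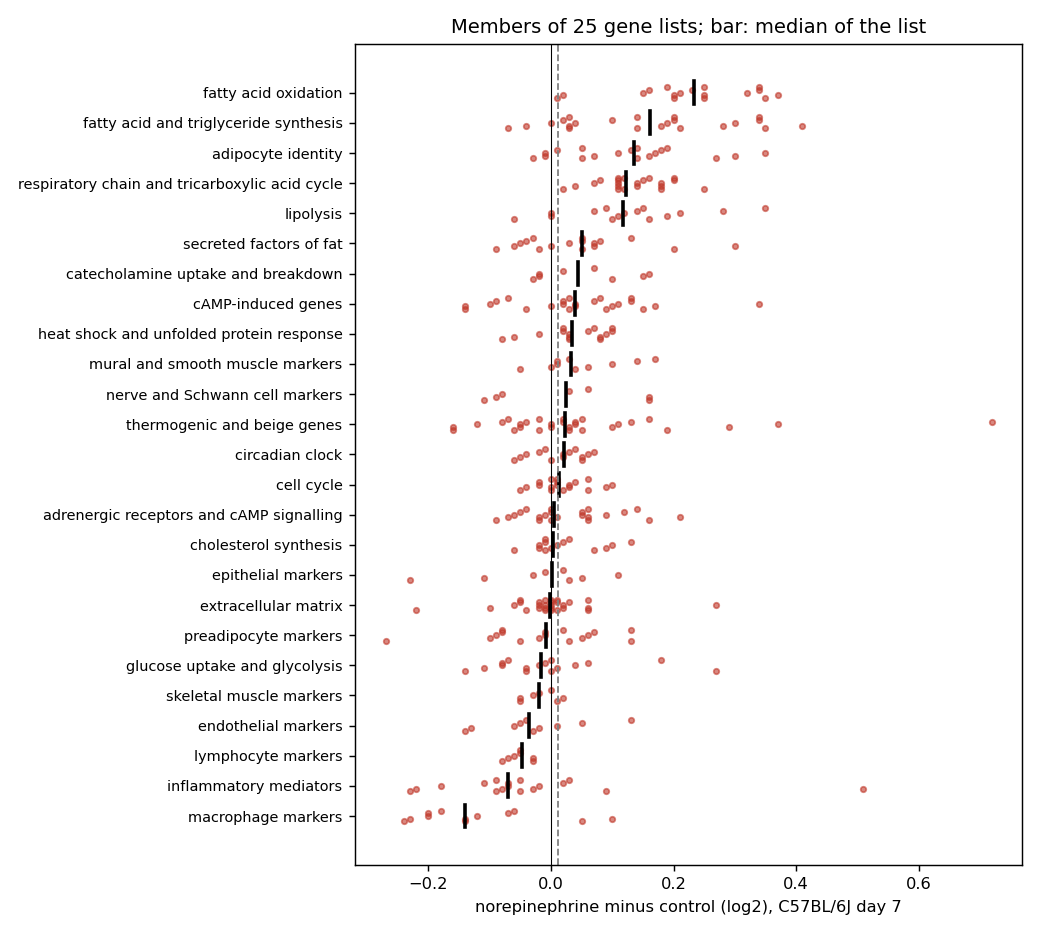
Each point is the log2 difference, NE minus control, of 1 measured gene in 1 of 25 lists, the black bar is the list's median and the dashed line the median of all clusters (0.0108). Medians run between 0.233 for fatty acid oxidation and -0.14 for macrophage markers, and no gene passed the test.

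Inflammatory mediators had a median difference of -0.0696 over 17 genes, which 1 array decided: without control culture 6 it was 0.00425, and 9 genes in place of 4 had a higher mean in NE cultures. In this list, Il6 was 8.70 ± 0.13 in NE cultures and 8.79 ± 0.23 in control cultures. Secreted factors had 0.051 over 17 genes (0.0241 after quantile normalization), and Vegfa, the vessel growth factor, was 11.61 ± 0.10 and 11.67 ± 0.10. Medians were 0.0138 for cell cycle genes, 0.0209 for the circadian clock, 0.00412 for cholesterol synthesis, -0.0169 for glucose uptake and glycolysis and 0.0346 for heat shock genes. Those for the cell cycle, the clock and cholesterol synthesis were below 0 after either rescaling. The list of sex-linked genes, of which Eif2s3y and Kdm5d on the Y chromosome were measured, is left out of the plot: the 2 genes differed by 0.12 (SE 0.11) and 0.15 (SE 0.15).

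The largest differences, picked here by their size, belonged to genes with wide spread within groups. Gys2, a glycogen synthase, read 7.53, 9.06, 7.95, 8.93 and 9.13 in NE cultures 1, 3, 4, 5 and 6, against 7.19, 7.68, 7.34 and 7.37 in control cultures 2, 3, 4 and 6. NE cultures 3, 5 and 6 were above all controls, culture 4 just above and culture 1 among them, and the difference was 1.12 (SE 0.32, 95% interval 0.42 to 1.83, adjusted p = 0.68, limma). Ces1d, a carboxylesterase of the lipid droplet, was 7.02, 8.31, 7.38, 8.08 and 8.29 in NE cultures and 6.81, 7.28, 7.18 and 6.90 in control cultures (0.77, SE 0.26). Adig, a small protein of adipocyte differentiation, and Itih4, a plasma protease inhibitor chain, differed by 0.66 (SE 0.21) and 0.65 (SE 0.20). In Gys2, Ces1d, Adig and Itih4, NE cultures 1 and 4 were the lowest of the NE cultures. The largest negative difference with a symbol was Magea4, at -0.82 (SE 0.26), in a dim cluster. Slc8a1, a sodium-calcium exchanger, had 2 clusters that disagreed: the brighter differed by 0.10 (SE 0.07) and the dim one by 0.83 (SE 0.25).

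The 30 genes with the smallest p (15 in each direction), none of which passed, are described by a few examples. Uqcrh, the hinge subunit of complex III, was 11.28, 11.64, 11.46, 11.40 and 11.54 in NE cultures and 11.08, 11.12, 11.10 and 11.14 in control cultures, with no overlap (0.35, SE 0.07, adjusted p = 0.68, limma). Rasd1, a small G protein that glucocorticoids induce, was 8.25, 8.66, 8.12, 8.49 and 8.67 in NE cultures and 7.74, 8.04, 7.92 and 7.87 in control cultures, again with no overlap (0.55, SE 0.12, adjusted p = 0.68, limma). Trarg1, which acts in trafficking of the glucose transporter Slc2a4, differed by 0.36 (SE 0.08) and Orm2, an acute phase protein, by 0.48 (SE 0.10). Kcnn3, a calcium-activated potassium channel, was 6.79 ± 0.04 in NE cultures and 7.04 ± 0.07 in control cultures, a difference of -0.25 (SE 0.04, adjusted p = 0.68, limma). Among the 15 lowest by p, olfactory receptors Olfr1504, Olfr1240, Olfr307, Olfr49 and Olfr568 lay among the dimmest clusters, with means of 3.52 to 5.81 in NE cultures and 4.06 to 6.10 in control cultures.

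The largest variation among these 9 arrays did not follow treatment. Penk, which encodes the precursor of enkephalin peptides, was 12.59 and 12.48 in NE cultures 1 and 4 and 9.86, 9.85 and 9.95 in NE cultures 3, 5 and 6, against 12.56 and 13.07 in control cultures 2 and 6 and 9.11 and 9.13 in control cultures 3 and 4. Cxcl5, a chemokine, was 9.25 and 9.42 in NE cultures 1 and 4 and 7.24 to 7.43 in the other NE cultures, against 9.50 and 10.08 in control cultures 2 and 6 and 6.99 and 6.86 in control cultures 3 and 4. The same 4 arrays were the highest for Serpinb2, a protease inhibitor, Slc7a11, the cystine transporter, and Ptgs2, the inducible cyclooxygenase. The first component of the deviations from group means held 38% of the within-group sum of squares. With that component as a covariate, an alternative added after these values were seen, 0 clusters passed, the smallest adjusted p was 0.29 (9430097D07Rik, limma), and Gys2 differed by 1.12 (SE 0.27, adjusted p = 0.31, limma). Leaving out any 1 of the 9 arrays also gave 0, with smallest adjusted p-values of 0.111 (without NE culture 1) to 0.998 (without control culture 2).

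**Figure D4:**
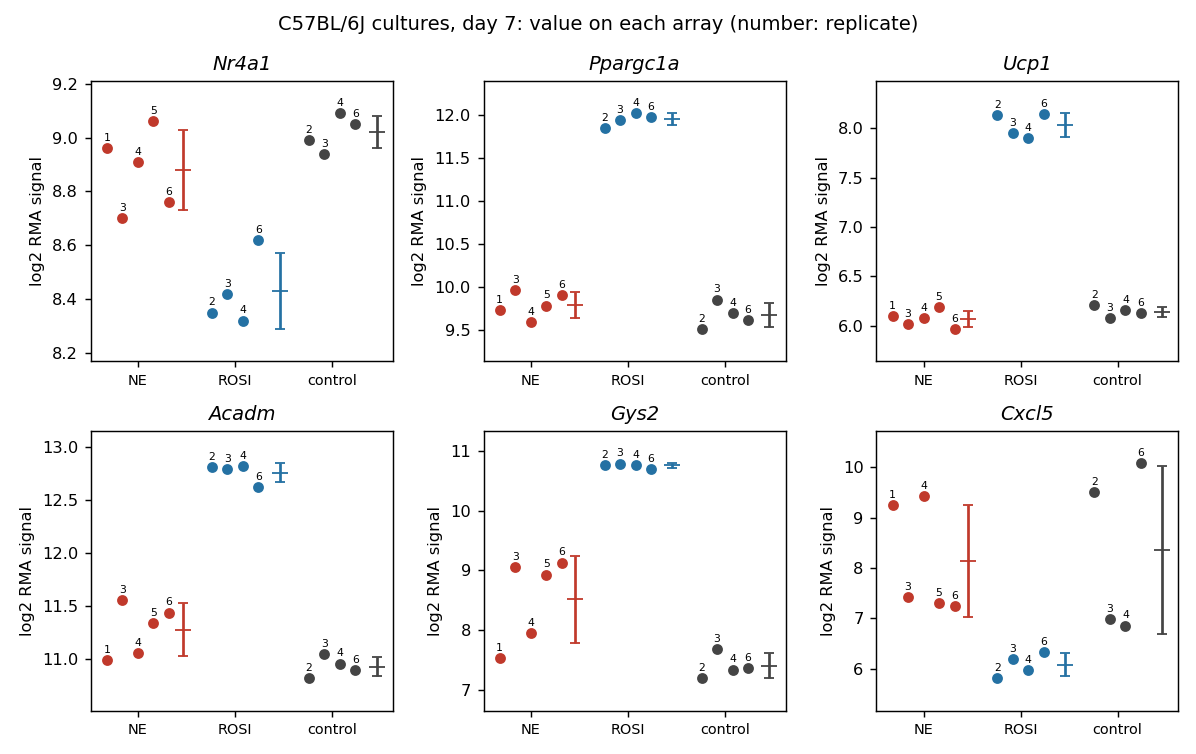
Log2 signal of 6 genes on each array of C57BL/6J cultures at day 7, with replicate numbers beside the points and the group mean ± SD at the right of each group. NE cultures overlap controls for Nr4a1, Ppargc1a and Ucp1, and NE cultures 1 and 4 are the lowest of their group for Acadm and Gys2 and the highest for Cxcl5.

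The same treatment was applied to SV129 cells, and the difference between the strains' NE effects was tested directly, with 4 groups of 5, 4, 5 and 4 arrays and no array shared between the effects. Within SV129, NE against control with all arrays also gave 0 of 17958 clusters (0%) at an adjusted p under 0.01. An unadjusted p under 0.05 was reached there by 12.9%. Over all clusters, the array labelled SV129 NE 2 had a mean correlation of 0.9945 with the other SV129 NE arrays, and each of the other 4 had 0.9954 to 0.9969. With the SV129 control arrays its mean correlation was 0.9943, within the 0.9937 to 0.9953 of the other 4. For the difference of effects with all arrays in and no weights or block, 0 clusters passed at an adjusted p under 0.01 (0%). The smallest adjusted p was 0.0913 (limma). An unadjusted p under 0.05 was reached by 1747 (9.73%), with 5.51% having a higher and 4.22% a lower effect in C57BL/6J. Without SV129 NE 2, 10 clusters passed, 3 with a higher effect in C57BL/6J and 7 with a lower one, and 8 of these 10 had a single symbol. That array was singled out because it sat near control level in several of the genes described next, so p-values without it depend on the outcome itself and are given as a description.

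Nr4a3 lay at 6.98 to 7.21 in C57BL/6J NE cultures and 7.03 to 7.32 in C57BL/6J control cultures. In SV129 it read 9.17, 7.13, 8.88, 9.24 and 9.32 in NE cultures 1, 2, 4, 5 and 6, against 7.10, 7.13, 7.41 and 7.36 in control cultures 1, 4, 5 and 6. SV129 NE 2 was at the level of controls. The C57BL/6J effect minus the SV129 effect was -1.54 (SE 0.43, adjusted p = 0.37, limma) with all arrays and -1.94 (adjusted p = 1.3e-06, limma) without SV129 NE 2. Vdr, the vitamin D receptor, chosen after its values were seen, was 8.14 to 8.42 in C57BL/6J NE cultures and 8.09 to 8.47 in C57BL/6J control cultures. In SV129 it was 10.21, 8.23, 10.07, 10.42 and 10.32 in NE cultures and 8.26, 8.22, 8.71 and 8.68 in control cultures. Its difference of effects was -1.37 (SE 0.43, adjusted p = 0.40, limma), and -1.77 (adjusted p = 2.3e-05, limma) without SV129 NE 2.

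Ucp1 was 5.97 to 6.19 in C57BL/6J NE cultures and 6.08 to 6.21 in C57BL/6J control cultures. In SV129 it was 7.08, 6.33, 7.18, 7.16 and 7.42 in NE cultures and 6.03, 5.94, 5.99 and 6.22 in control cultures, so that all 5 SV129 NE arrays lay above all SV129 controls while the C57BL/6J groups overlapped. The difference of effects was -1.06 (SE 0.20, adjusted p = 0.091, limma), and -1.24 (adjusted p = 7.2e-06, limma) without SV129 NE 2. Nr4a1 gave -0.64 (SE 0.20, adjusted p = 0.40, limma), and -0.81 (adjusted p = 0.0018, limma) without that array. Csf2, a cytokine also chosen after its values were seen, gave -1.62 (adjusted p = 0.0094, limma) without it, and Slpi, a secreted protease inhibitor, -0.55 (adjusted p = 0.0094, limma). Neither Csf2 nor Slpi passed in the fit with all arrays and no weights or block. With array weights, which keep all arrays, Ucp1 (-1.1, adjusted p = 0.0023, limma) and Slpi (-0.55, adjusted p = 0.0042, limma) passed.

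Trpv2, a calcium-permeable channel, went the other way. It was 9.0 to 9.14 in C57BL/6J NE cultures and 9.03 to 9.16 in C57BL/6J control cultures. In SV129 it was 8.34, 8.82, 8.32, 8.50 and 8.65 in NE cultures and 9.05, 9.27, 9.38 and 9.42 in control cultures, so that the SV129 groups were apart and the C57BL/6J groups overlapped. The difference of effects was 0.74 (SE 0.13, adjusted p = 0.091, limma), and 0.81 (adjusted p = 0.0024, limma) without SV129 NE 2. Arhgap20 gave 0.52 (SE 0.10, adjusted p = 0.13, limma), and 0.59 (adjusted p = 0.0018, limma) without it.

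Ppargc1a had effects of 0.13 (SE 0.09) in C57BL/6J and 0.03 in SV129, with a difference of 0.10 (SE 0.13, adjusted p = 0.82, limma). In SV129, Gys2 was 9.60, 7.02, 9.87, 9.55 and 10.02 in NE cultures and 7.04, 6.94, 6.52 and 6.46 in control cultures, so its mean was higher with NE in both strains, by 1.12 in C57BL/6J and 2.47 in SV129, neither of which passed (adjusted p = 0.68 and 0.12, limma). The difference of these effects was -1.35 (SE 0.66, adjusted p = 0.53, limma). Without SV129 NE 2, which was at control level for Gys2 too, the SV129 effect was 3.02 (adjusted p = 9e-06, limma) and the difference -1.89 (SE 0.39, adjusted p = 0.063, limma). In the fatty acid oxidation list the median NE effect was 0.233 in C57BL/6J and 0.289 in SV129, and 0 of its members passed the test of the difference with all arrays.

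**Figure D5:**
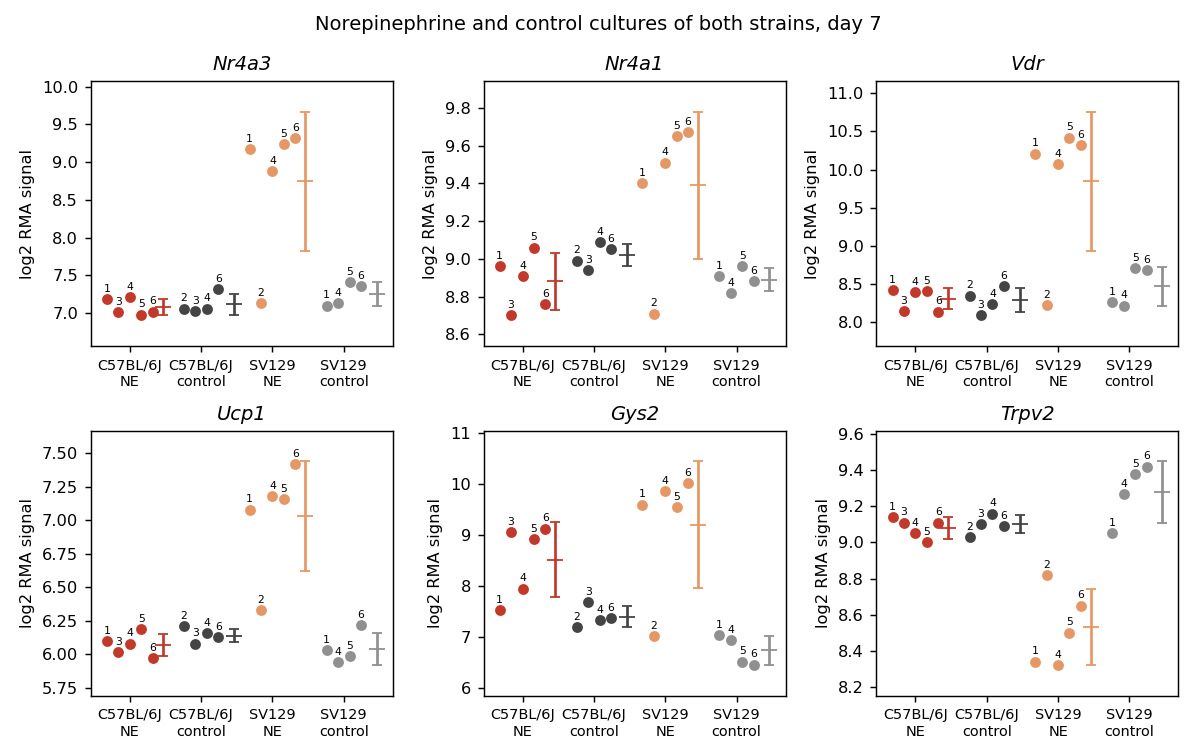
Log2 signal of 6 genes on each NE and control array of both strains at day 7, with replicate numbers and group mean ± SD. SV129 NE arrays 1, 4, 5 and 6 are above all other arrays for Nr4a3, Nr4a1 and Vdr, SV129 NE 2 lies at control level there, and C57BL/6J NE arrays overlap their controls in all 6 panels.

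NE was then set against ROSI, an agonist of Pparg, in C57BL/6J cultures at day 7, with 5 and 4 arrays and no control array in the test. Here 5706 clusters (31.8%) passed at an adjusted p under 0.01, with 2741 (15.3%) higher and 2965 (16.5%) lower in NE cultures, and 496 differed by more than 1 on the log2 scale. An unadjusted p under 0.05 was reached by 47.7%. With the replicate number as a block the count was 3356.

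Every measured gene of fatty acid oxidation (17 of 17) and of the respiratory chain and tricarboxylic acid cycle (21 of 21) was lower in NE than in ROSI cultures past the threshold, with median differences of -1.40 and -0.971. So were 14 of 15 lipolysis genes, 17 of 22 synthesis genes and 18 of 29 thermogenic genes, beside 16.5% of all clusters. Past the threshold in the other direction were 4 thermogenic genes, 0 lipolysis genes and 0 synthesis genes. Fabp3, a fatty acid carrier of oxidative tissues, was 8.66 ± 0.15 in NE cultures and 12.71 ± 0.14 in ROSI cultures (-4.05, SE 0.09, adjusted p = 4.2e-10, limma). Sptlc3, of sphingolipid synthesis, was 5.07 ± 0.14 and 9.01 ± 0.11 (-3.94, SE 0.08, adjusted p = 4.2e-10, limma). Otop1, a proton channel, differed by -3.16 (SE 0.08), Elovl3 by -3.99 (SE 0.14) and Ucp1 by -1.96 (SE 0.06), the last with 6.07 ± 0.08 in NE cultures and 8.03 ± 0.12 in ROSI cultures.

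Matrix and precursor genes were higher in NE than in ROSI cultures. Of 28 extracellular matrix genes 23 were higher past the threshold and 3 lower, with a median of 0.483, and of 16 preadipocyte markers 12 were higher and 1 lower, with a median of 0.886. Cell cycle genes were higher in 15 of 18 and lower in 0. Over all clusters 15.3% were higher past the threshold. Sfrp2, a secreted modulator of Wnt signals, differed by 1.92 (SE 0.09), Chl1, a cell adhesion molecule, by 1.93 (SE 0.05), Tnfaip6, which remodels hyaluronan, by 1.22 (SE 0.04), and Lbp, the carrier of bacterial lipopolysaccharide, was 12.48 ± 0.04 in NE cultures and stood between 11.26 and 11.34 in ROSI cultures. All 6 clusters more than 4 higher in NE cultures (4.16 to 5.24) had no single gene symbol here.

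The pathway of NE itself also differed between the treatments, in both directions. Adcy5 was 8.60 ± 0.12 in NE cultures and 10.06 ± 0.08 in ROSI cultures (-1.46, adjusted p = 4e-08, limma), and Pde3b was 10.02 ± 0.14 and 11.85 ± 0.05 (-1.83, SE 0.07). Nr4a1 was higher in NE cultures, at 8.88 ± 0.15, against 8.43 ± 0.14 in ROSI cultures (0.45, SE 0.08, adjusted p = 0.0011, limma), and Dio2 likewise (0.64, SE 0.11). The call of Nr4a1 was lost with the replicate block (0.33, adjusted p = 0.042, limma) and with all 35 arrays in 1 model (0.45, adjusted p = 0.032, limma). Set against control cultures, which the following pairs of values share, Acadm differed by 0.34 (SE 0.11) with NE and 1.83 (SE 0.06) with ROSI, Ppara by 0.37 (SE 0.11) and 3.07 (SE 0.07), and Nr4a1 by -0.14 (SE 0.07) and -0.59 (SE 0.07). Of 17958 clusters 0% passed with NE and 27.3% with ROSI, and 6.84% and 45.6% had an unadjusted p under 0.05.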

How the data were processed

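The authors made the deposited log2 values with Affymetrix Power Tools and robust multi-array averaging (RMA), which corrects background, quantile-normalizes and summarises probes, as the labels name them; their versions: not given in the sources used here. RMA values compress differences of dim clusters. Of 17958 transcript clusters, 15621 had 1 gene symbol by the platform annotation, 1370 several and 967 none, and only the first were named; where a gene had several clusters, the brightest over the 35 arrays was used. Groups came from the labels. Each comparison was fitted on its own arrays with limma 3.58.1 (lmFit, eBayes) in R 4.3.3, and p-values were adjusted by Benjamini-Hochberg over all clusters, with a threshold of 0.01 as in the methods. Figures used matplotlib 3.10.9. Differences are NE minus the group it was set against. The scripts were tested on simulated data. Arrays have no read depth, so the number of arrays limits the precision, and nothing states that replicates came from separate animals, so p-values measure the spread between these cultures.

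Named genes were the 15 with the largest differences in each direction among those that passed, filled up by the smallest unadjusted p; up to 3 per list among those that passed; 21 fixed genes, of which 17 were measured; and the 6 smallest p in each direction for the strain and ROSI comparisons, 69 in all. The 26 lists (439 genes, 378 measured) include cell type markers. Members, lists and rules were chosen with earlier results of these data known. Genes named outside the rule were chosen after their values were seen or as list members. Alternatives were stricter and looser thresholds, shared models, trend, robust and weighted fits, scaling, a filter on dim clusters, the replicate block and leaving out each array. Promoters came from RefSeq (GRCm38.p6); as no cluster passed for NE against control, motifs were counted over all measured genes with a promoter.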

Additional observations from a re-analysis of the deposited data

Results flagged for a closer look

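Of 162 groups of 4 or 5 arrays of the 69 named genes, 4 held an array far from the rest of its group by Dixon's ratio at the 95% level; chance alone gives about 1 in 20. Tnfaip6 was 9.55 in C57BL/6J NE culture 3, against 9.48 to 9.50 in the other NE cultures. Ajm1 was 7.48 in control culture 3, against 7.33 to 7.34 in the other controls. In control culture 6, Nr4a3 was 7.32, against 7.03 to 7.06 in the other controls, and Col24a1 was 5.24, against 5.51 to 5.56.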

How the results depend on the processing

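For NE against control, 0 clusters passed under each of 21 alternatives, with smallest adjusted p-values of 0.111 to 0.998 (limma) and 449 to 1833 clusters at an unadjusted p under 0.05. This includes the 9 fits that left out 1 array each and the replicate block, which gave 0. The split of these clusters was 829 higher and 399 lower as deposited, 600 and 512 after quantile normalization and 439 and 850 after median centring. For the difference between strains, the 0 became 23 with array weights (16 higher and 7 lower in C57BL/6J), 3 with the replicate block (Ucp1, Nr4a3 and Vdr, all lower) and 0 to 10 on leaving out single arrays: 10 without SV129 NE 2 and 1, 4931428L18Rik, without C57BL/6J NE 6. By construction the block gives SV129 NE 2, which has no control of its number, no weight. The same holds in C57BL/6J for NE 1, NE 5 and control 2, and for NE 1, NE 5 and ROSI 2 in the test against ROSI. The block fits therefore rest on fewer arrays. Other causes of the changes in the strain count were not tested. For NE against ROSI, the 5706 became 3356 with the replicate block, 1696 with a 1.5-fold minimum and 5044 to 5400 without single arrays. Replicate numbers were not taken to pair cultures, and so few arrays cannot decide whether they do. Deviations of same-numbered NE and control arrays of C57BL/6J correlated at 0.14, -0.31 and -0.15, and of NE and ROSI arrays at 0.021, 0.12 and -0.052. For NE and control arrays of SV129 the values were -0.033, 0.099, 0.3 and -0.12. No list member passed for NE against control in any of the fits run. Genes named by rule kept their side of the threshold for NE against control. Of 13 genes given with a ROSI difference, 2 of 221 gene and setting pairs did not pass, both of Nr4a1. For the strain difference, 18 pairs of a named gene and a setting passed that did not in the fit with all arrays and no weights or block. They came from array weights, the replicate block and the fit without SV129 NE 2. Array weights keep all arrays, and Trpv2 (0.87, adjusted p = 0.0011, limma) and Arhgap20 (0.59, adjusted p = 0.0027, limma) were among the genes that passed there.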
